A study of Mus musculus with 3 samples.

Results

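Tissue inhibitors of metalloproteinases (TIMPs) and ADAMTS proteases were followed as 10 genes, the inhibitors Timp1, Timp2, Timp3 and Timp4 and the proteases Adamts1, Adamts2, Adamts4, Adamts5, Adamts9 and Adamts12. They were chosen by name and make up 10 of the 43472 rows of the expression table. The cells were primary fibroblasts from the tail tip of C57BL/6 mice, scratched to model a wound and given the soluble micrograft (MG), a filtered and cell-free extract of mouse skin, together with PD0325901, an inhibitor of the kinase MEK, for 5 h. All 3 libraries belong to this MG + PD0325901 condition and are labelled replicates 1, 2 and 3. No sample without the inhibitor or without MG was analysed here, so the values describe levels in 1 condition and how they vary between replicates, and no test between conditions was made. Whether the replicates came from separate mice, and the age of the mice, are not given in the sources used here.

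TIMPs are small secreted proteins that bind the active site of matrix metalloproteinases (MMPs) and, for some of them, of ADAM and ADAMTS proteases. ADAMTS proteases are secreted zinc enzymes with thrombospondin repeats that cut proteoglycans such as aggrecan and versican, or trim the ends of newly made collagens. In a healing wound fibroblasts make both groups, and the balance between them takes part in how far the matrix is opened for migrating cells and rebuilt afterwards.

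The libraries held 17244505 to 27037783 reads on genes. Levels are given as normalized counts, which are the reads of a gene divided by the size factor of its library. Detection here means at least 10 normalized counts in every library. Replicate 2 stood apart from the others in 684 genes above and 641 genes below, out of 13154 with a mean of at least 10, when more than 2-fold from both other libraries was required, so the mean of a member is also given without it where that moved it by over 1.5 times, or where replicate 2 alone was low. All 8 fibroblast markers (Col1a1, Col1a2, Col3a1, Dcn, Lum, Pdgfra, Pdgfrb and Vim) were detected, with a summed level of 345263, 371184 and 511183 normalized counts in replicates 1, 2 and 3. Of the 6 keratinocyte genes listed, 1 was detected, Krt10 at 80.8, 39.5 and 32.0 normalized counts in replicates 1, 2 and 3. Krt5, Krt14 and Cdh1 had no more than 2 reads in any library. Krt15 and Krt1 were at 0 in every library, and the list summed to 34.4 to 83.4 normalized counts.

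Of the 10 members, 8 were detected. Timp1, Timp2 and Timp3 were among the genes with the highest normalized counts in these cells. Their ranks were 29, 32 and 24 by mean among all rows, without correction for transcript length. Together the TIMPs took 0.894%, 0.541% and 0.925% of all reads on genes in replicates 1, 2 and 3, against 0.0222%, 0.0340% and 0.0220% for the 6 ADAMTS genes. Among the ADAMTS members Adamts1 was the highest, with a mean rank of 1762, and Adamts9 was close to the limit of detection. Timp4 was not detected.

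**Figure D1:**
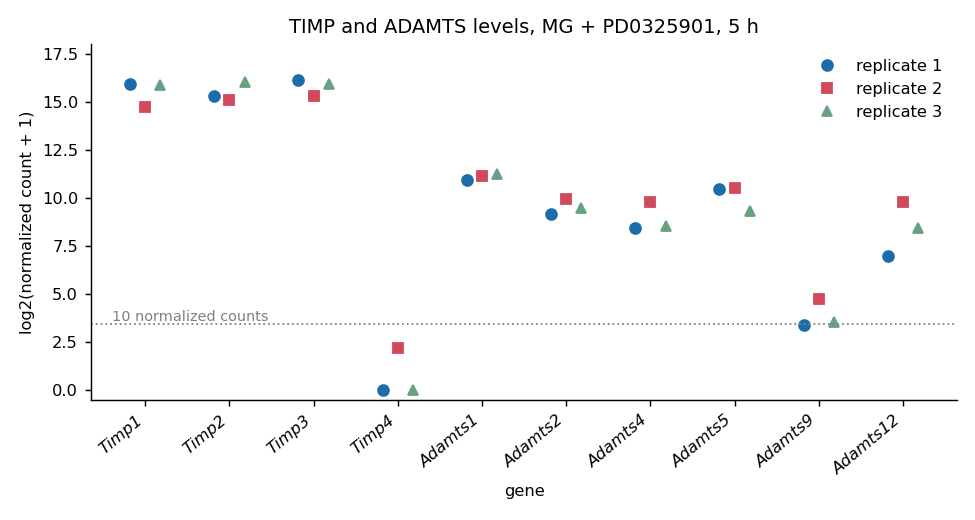
Level of each of the 10 genes in each library, as log2(normalized count + 1), with 1 point per replicate and a dotted line at 10 normalized counts. Timp1, Timp2 and Timp3 sit far above the ADAMTS genes in every library, while Timp4 has 0 in replicates 1 and 3. Adamts9 lies near the line in replicates 1 and 3 and above it in replicate 2.

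Timp1 (ENSMUSG00000001131.11, chromosome X, 20870166 to 20874735, plus strand, GRCm38) encodes a soluble inhibitor of most MMPs and is a classical gene induced by growth factors and AP-1. Replicates 1, 2 and 3 gave 62668, 27514 and 60429 normalized counts, and their mean was 50204 ± 19682 (SD, n = 3). Replicates 1 and 3 lay within 1.04-fold of each other, and replicate 2 was 2.20-fold below the nearer of them. Without replicate 2 the mean was 61548 normalized counts.

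Since the study concerns AP-1, the promoter of Timp1 is shown as RefSeq places it on GRCm38.p6, chrX:20869916-20870165, plus strand. The 250 bases before the transcription start follow, with the reverse complement of a GC box (GGGCGG) in capitals. A second run, chrX:20870182-20870208, holds TGAGTAA in capitals, a variant of the AP-1 site known from the Timp1 promoter, at positions 27 to 33 counted from 1 at the start.
Timp1 upstream: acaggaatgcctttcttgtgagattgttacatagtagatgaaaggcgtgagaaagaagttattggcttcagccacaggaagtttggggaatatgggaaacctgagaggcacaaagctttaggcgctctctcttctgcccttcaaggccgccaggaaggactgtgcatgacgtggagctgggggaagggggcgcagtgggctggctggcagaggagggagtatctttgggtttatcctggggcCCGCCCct
Timp1 after the start: ggtgggtggaTGAGTAAtgcgtccagg

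Promoter windows, 250 bases before and 50 after the start, were at hand for 8 of the 10 members, all but Adamts4 and Adamts5. The AP-1 motif TGANTCA, searched on both strands, was in 0 of the 8 windows and in 7.81% of all 32851 windows. TGAGTAA was in 1 of the 8, that of Timp1, and in 2.68% of all, and it was picked after the window had been read. The cyclic AMP element TGACGTCA was in 0 of the 8 and in 1.79% of all. A GC box was in 6 of the 8 and in 35.7% of all. These matches describe letters within the window and say nothing on sites farther away.

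Timp2 (ENSMUSG00000017466.9, chromosome 11, 118301069 to 118355740, minus strand) encodes the inhibitor that, besides blocking MMPs, takes part with the membrane protease Mmp14 in activating pro-Mmp2. Its levels were 40030, 34907 and 66138 normalized counts in the same order, with a mean of 47025 ± 16749 (SD, n = 3). Here replicate 3 was the high library, 1.65-fold above replicate 1, and replicate 2 was again the lowest, though close to replicate 1.

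Timp3 (ENSMUSG00000020044.13, chromosome 10, 86300372 to 86349506, plus strand) encodes the inhibitor that stays bound to the matrix and also blocks Adam17 and the aggrecanases Adamts4 and Adamts5. It had 72294, 40662 and 62534 normalized counts, averaging 58496 ± 16198 (SD, n = 3), with replicate 2 the lowest at 1.54-fold below replicate 3. Timp3 shares 1733 bases of exon with Syn3, a synapsin gene on the opposite strand. The libraries were stranded, but how the counting treated strand is not given in the sources used here, so reads of this stretch could have been assigned to either gene or to none. Syn3 was far lower, with 333, 27.5 and 92.5 normalized counts.

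Timp4 (ENSMUSG00000030317.8, chromosome 6, 115241892 to 115252205, minus strand), an inhibitor best known from the heart, had 0 reads in replicates 1 and 3 and 5 reads in replicate 2. A count of 0 allows up to 2.61 normalized counts in replicate 1 and 3.56 in replicate 3, taking the limit as 3 reads. The 5 reads correspond to 3.52 normalized counts, with an exact 95% Poisson interval of 1.14 to 8.22, and on that basis 0 reads allow up to 3.20 in replicate 1 and 4.37 in replicate 3. Such limits cover counting error only, since the reads carried no molecular identifiers. A difference between libraries was not detectable at this depth.

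Of the TIMPs, 3 of 3 detected genes were lowest in replicate 2, which was the lowest library for 37.3% of all 12204 detected genes. Only Timp1 among them was more than 2-fold below both other libraries there, which held for 4.87% of genes with a mean of at least 10. Marker lists differed in how they moved between the libraries. The tendon and cartilage list (Scx, Tnmd, Mkx, Fmod, Sox9, Col2a1, Acan, Comp and Matn1, 7 of 9 detected, Matn1 at 0 in every library) summed to 26693, 1869 and 15801 normalized counts in replicates 1, 2 and 3, lowest in the same library as the TIMPs. Of its 7 detected genes, 5 were lowest in replicate 2. Tnmd (124, 127 and 107) was highest there, and Sox9 (171, 149 and 117) was lowest in replicate 3. The endothelial list (1 of 5 detected) summed to 90.3, 244 and 55.7 and was highest in replicate 2 through Tek. Tek (6.95, 185 and 2.37) was itself not detected. Egfl7, the detected gene (69.5, 53.6 and 49.8), was highest in replicate 1, as were Pecam1 and Kdr. The leukocyte list (2 of 6 detected) summed to 150, 104 and 691 and was highest in replicate 3, mostly through Lyz2 (123, 62.7 and 601). Tyrobp, Cd52 and Laptm5 were also highest there. Cd68 (22.6, 33.1 and 27.3) was highest in replicate 2 and Ptprc in replicate 1. The smooth muscle and pericyte list (Acta2, Cnn1, Cspg4, Des, Myh11 and Rgs5, 6 of 6 detected) summed to 182932, 192313 and 236209, highest in replicate 3. Its genes were divided. Des (212, 1208 and 77.0) and Myh11 were highest in replicate 2, Acta2 and Cspg4 in replicate 3, and Cnn1 and Rgs5 in replicate 1. Within the fibroblast list, 2 of 8 genes were more than 2-fold below both other libraries in replicate 2, as Timp1 was. These were the small proteoglycans Dcn, at 3661, 1723 and 3659 normalized counts, and Lum, at 5073, 289 and 1164. Their part in the TIMP levels was not tested. In bulk samples, fewer cells of a type and less RNA per cell cannot be told apart.

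Adamts1 (ENSMUSG00000022893.14, chromosome 16, 85793827 to 85803113, minus strand) encodes a protease of versican and aggrecan that is quickly induced by inflammatory signals. Its level was 1922, 2267 and 2427 normalized counts in replicates 1, 2 and 3, averaging 2206 ± 259 (SD, n = 3). It was the steadiest member, with a 1.26-fold range, and its SD of log2(normalized count + 1), 0.17, was larger than that of only 22.8% of detected genes. Replicate 2 lay between the others. Its upstream sequence is shown because it was the single member promoter with the letters TATAAA, which 13.6% of all windows held, here at positions -32 to -27. The 250 bases before the start lie at chr16:85803114-85803363 on GRCm38.p6 in RefSeq and are written along the minus strand, with TATAAA and 3 GC boxes in capitals.
Adamts1 upstream: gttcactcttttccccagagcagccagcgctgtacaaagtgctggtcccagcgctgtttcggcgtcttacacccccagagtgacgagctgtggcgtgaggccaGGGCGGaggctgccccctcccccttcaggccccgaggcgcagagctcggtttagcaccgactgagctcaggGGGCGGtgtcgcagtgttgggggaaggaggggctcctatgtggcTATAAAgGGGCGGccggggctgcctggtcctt

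Adamts5 (ENSMUSG00000022894.6, chromosome 16, 85856173 to 85901828, minus strand) encodes the main aggrecanase of mouse cartilage and lies 53059 bases from Adamts1 on the same strand. Its levels were 1382, 1482 and 645 normalized counts, averaging 1169 ± 457 (SD, n = 3). Unlike its neighbour it was low in replicate 3, more than 2-fold below both other libraries, a pattern found in 2.30% of genes. Adamts4 (ENSMUSG00000006403.13, chromosome 1, 171250421 to 171260637, plus strand), the other aggrecanase, had 346, 880 and 373 normalized counts, averaging 533 ± 301 (SD, n = 3). Replicate 2 stood alone on the high side, 2.36-fold above replicate 3, while replicates 1 and 3 were within 1.08-fold of each other. The ratio of Adamts4 to Adamts5 per kb of exon was 0.563, 1.33 and 1.30 in replicates 1, 2 and 3, so which aggrecanase had the higher level changed between replicates.

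Adamts2 (ENSMUSG00000036545.8, chromosome 11, 50602084 to 50807573, plus strand) encodes the enzyme that removes the amino-terminal propeptide of fibrillar procollagens. It had 561, 965 and 705 normalized counts, averaging 744 ± 205 (SD, n = 3). Replicate 2 was the highest, though by a 1.72-fold range at most.

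Adamts12 (ENSMUSG00000047497.10, chromosome 15, 11064790 to 11349231, plus strand) encodes a protease that cuts cartilage oligomeric matrix protein (Comp). It varied most among the detected members, at 124, 865 and 340 normalized counts in replicates 1, 2 and 3, which averaged 443 ± 381 (SD, n = 3). Without replicate 2 the mean was 232 normalized counts. No library lay near another, as replicate 2 was 2.54-fold above replicate 3 and replicate 3 was 2.74-fold above replicate 1. Its SD of log2 values, 1.40, exceeded that of 98.4% of detected genes, and counting error was 8.36% in its library with the fewest reads, far smaller than the spread between libraries. Comp itself had 2900, 387 and 3082 normalized counts and was lowest where Adamts12 was highest. In replicate 2 it was more than 2-fold below both others, as were 4.87% of genes with a mean of at least 10. Between replicates 1 and 3, where Adamts12 differed 2.74-fold, Comp was alike. Adamts9 (ENSMUSG00000030022.14, chromosome 6, 92772699 to 92943492, minus strand), a versican-cutting protease, had 9.55, 25.4 and 10.7 normalized counts from 11, 36 and 9 reads. The exact 95% Poisson intervals were 4.77 to 17.1, 17.8 to 35.1 and 4.88 to 20.3, and the interval of replicate 2 overlapped with that of replicate 3 but not with that of replicate 1. The mean was 15.2 normalized counts, and 10.1 without replicate 2. Adamts9 shares 1381 bases of exon with A730049H05Rik on the opposite strand, which had 1.74, 16.9 and 0 normalized counts.

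**Figure D2:**
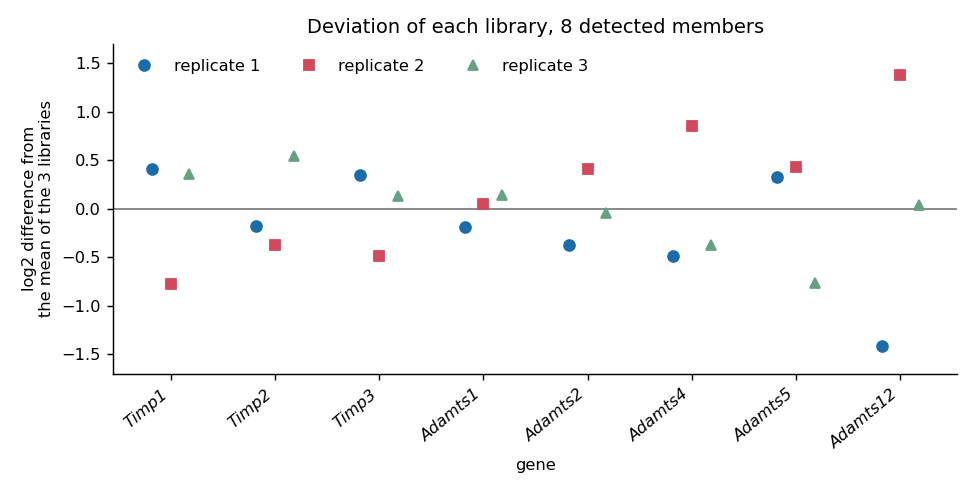
Difference of each library from the mean of the 3 libraries in log2(normalized count + 1), for the 8 detected genes, with 1 point per replicate. Replicate 2 (square) is below the line for Timp1, Timp2 and Timp3 and above it for the 5 ADAMTS genes, barely so for Adamts1 at 0.05, and the widest spread is that of Adamts12, from -1.41 to 1.38.

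The replicates were then compared over the whole set. In 4 of the 8 detected members (Timp1, Adamts4, Adamts5 and Adamts12) the libraries spanned more than 2-fold from lowest to highest. Over all 12204 detected genes this share was 21.6%. On the scale of log2(normalized count + 1), the members had a median SD of 0.58, and all detected genes had 0.30. Without replicate 2 these medians were 0.24 and 0.20, and 2 of 8 members (Adamts5 and Adamts12) were more than 2-fold apart between replicates 1 and 3, against 6.06% of detected genes. Among the 9 members with a mean of at least 10, replicate 2 was more than 2-fold above both others for Adamts4, Adamts9 and Adamts12, a pattern found in 5.20% of all such genes. With a pseudocount of 10 Adamts9 was no longer among them. Replicate 1 was more than 2-fold below both others for Adamts12, as for 1.97% of genes. No member had replicate 1 or replicate 3 more than 2-fold above both others, which 2.29% and 1.28% of genes had. With 10 genes these counts are small and were not tested.

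Genes with the closest pattern over the 3 libraries were looked up among the 9992 genes that averaged 100 normalized counts or more, by the root mean square difference of log2 deviations. With only 3 libraries many genes come close by this measure. Chchd7 and Izumo4 were nearest to Timp1, at 0.01 and 0.02, with 73 genes within 0.1. Zbtb33 and Gprc5b were nearest to Adamts4 (both 0.01), and Cdkn1b and Rnf138 to Adamts5 (both 0.04). Of these 4 members, Adamts12 had the fewest genes within 0.1, which were Arid5b (0.04) and Hgf (0.10). Arid5b had 129, 842 and 335 normalized counts, side by side with the 124, 865 and 340 of Adamts12.

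Longer transcripts collect more reads, so levels were compared between genes per kb of merged exons. By mean the order was Timp1, Timp2, Timp3, Adamts1, Adamts4, Adamts5, Adamts2, Adamts12, Adamts9 and Timp4. Timp1, the shortest member with 888 bases of exon, had 70572, 30984 and 68050 normalized counts per kb in replicates 1, 2 and 3, averaging 56536 ± 22164 (SD, n = 3). It was 3.46-fold to 6.87-fold above Timp2 and made up 69.0% to 78.7% of the summed TIMP level per kb. Timp2 had 12070 ± 4299 and Timp3 7183 ± 1989 normalized counts per kb (SD, n = 3). The ranges of these 3 genes over the libraries did not overlap, though the lowest library of Timp2 (8960) was close to the highest of Timp3 (8877). The step from Timp2 to Timp3 depended on the length used, as Timp3 has 8144 bases of merged exon and a longest transcript of 4722. With the longest transcript the means were 12679 for Timp2 and 12388 for Timp3 per kb, the ranges overlapped, and Timp3 was the higher in replicate 1.

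Among the proteases, Adamts1 had 416 ± 48.8 normalized counts per kb (SD, n = 3), 16.9-fold below Timp3 on average, and was separated from the next gene in every library. Adamts4 with 111 ± 62.5, Adamts5 with 108 ± 42.4 and Adamts2 with 79.6 ± 21.9 normalized counts per kb (SD, n = 3) were not separated, as their ranges overlapped and their order changed between libraries. Adamts12, with 40.6 ± 34.9, was below Adamts2 in all 3 libraries, but its range overlapped with that of Adamts2. Adamts9, with 1.01 ± 0.587 normalized counts per kb (SD, n = 3), was far lower than any of these.

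**Figure D3:**
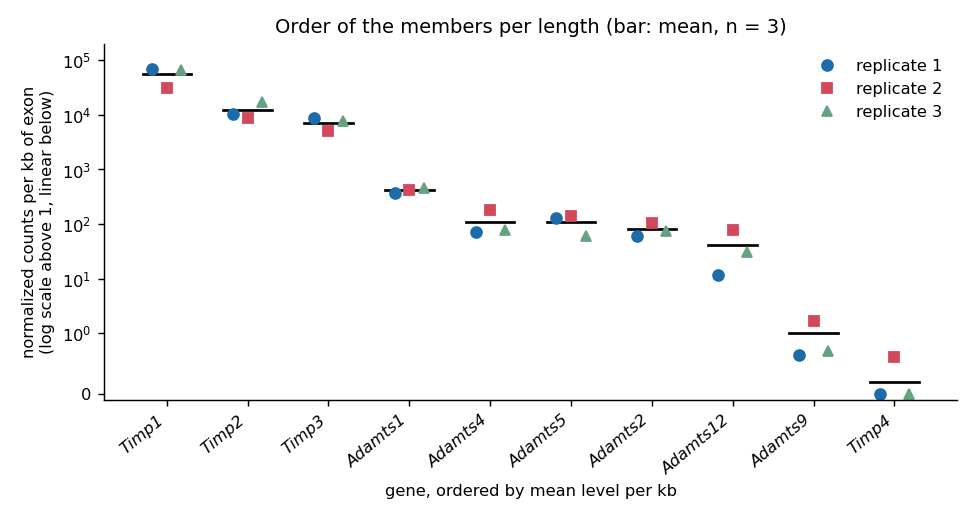
Normalized counts per kb of exon for the 10 genes in order of their mean (bar), with 1 point per replicate and a vertical axis that is logarithmic above 1 and linear below. The step between Timp3 and Adamts1 is clear in every library, while the points of Adamts4, Adamts5 and Adamts2 overlap.

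The summed levels of inhibitors and proteases were set against each other within each library. The TIMPs were 141-fold, 48.2-fold and 132-fold above the 6 ADAMTS members in replicates 1, 2 and 3 per kb, a log2 ratio of 6.59 ± 0.87 (SD, n = 3). Both sums moved in replicate 2, as the TIMP sum there was 44938 per kb against 89724 and 92705, and the ADAMTS sum was 932 per kb against 635 and 703. Against the 23 MMP genes listed, the TIMPs were 6.48-fold, 3.46-fold and 4.39-fold higher per kb, a log2 ratio of 2.21 ± 0.46 (SD, n = 3). Without replicate 2 the mean log2 ratios were 7.09 to the ADAMTS members and 2.42 to the MMP genes. These are ratios of transcript levels, and protein or inhibitory activity was not measured in these libraries.

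**Figure D4:**
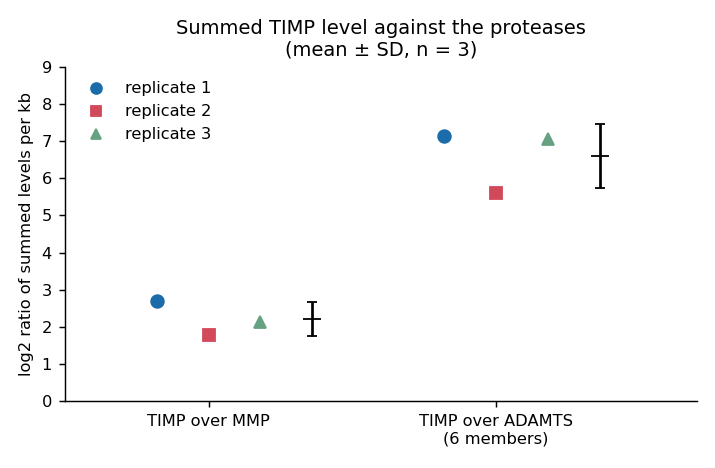
Log2 ratio of the summed TIMP level per kb to that of the MMP genes and to that of the 6 ADAMTS members, with 1 point per library and the mean ± SD (n = 3) beside them. Replicate 2 is the lowest library in both ratios, at 1.79 for the MMP genes and 5.59 for the ADAMTS genes.

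The wider ADAMTS family was read from a list of genes taken by name. Of 19 ADAMTS genes, members included, 10 were detected, and replicate 2 was the highest library for 8 of these 10, against 40.6% of all detected genes. The exceptions were Adamts1 and Adamts7, both highest in replicate 3. For 8 of the 10 the lowest library was replicate 1, against 34.5% of all detected genes. Outside the members, Adamts14 had the highest mean per kb, 79.1 ± 68.2 (SD, n = 3), which rested on replicate 2. Without it Adamts14 averaged 39.8 per kb, below Adamts10 with 46.9 and Adamts2 with 67.8. Adamts14 and Adamts3 are, with Adamts2, the procollagen amino-terminal proteinases. Adamts14 had 218, 820 and 196 normalized counts in replicates 1, 2 and 3, high in replicate 2 alone, and Adamts3 had 14.8, 47.2 and 34.4. Adamts6, which is needed for heart development, had 124, 383 and 271 normalized counts. Adamts10, a protein of microfibrils, and Adamts7, which cuts Comp as Adamts12 does, had narrower ranges of 1.42-fold and 1.65-fold. Adamts18 was at 0 in every library, and Adamts13, the von Willebrand factor protease of plasma, had 1 read in replicate 1 only.

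ADAMTS-like proteins resemble the non-catalytic part of these proteases. Of 7 such genes 5 were detected, and Adamtsl4, which supports fibrillin microfibrils, was the highest per kb, followed by Adamtsl5, Adamtsl3 and Adamtsl1. Adamtsl4 had 1448, 815 and 1821 normalized counts, lowest in replicate 2, and was the single one of the 5 with a more than 2-fold range. Over all detected genes 21.6% had such a range.

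**Figure D5:**
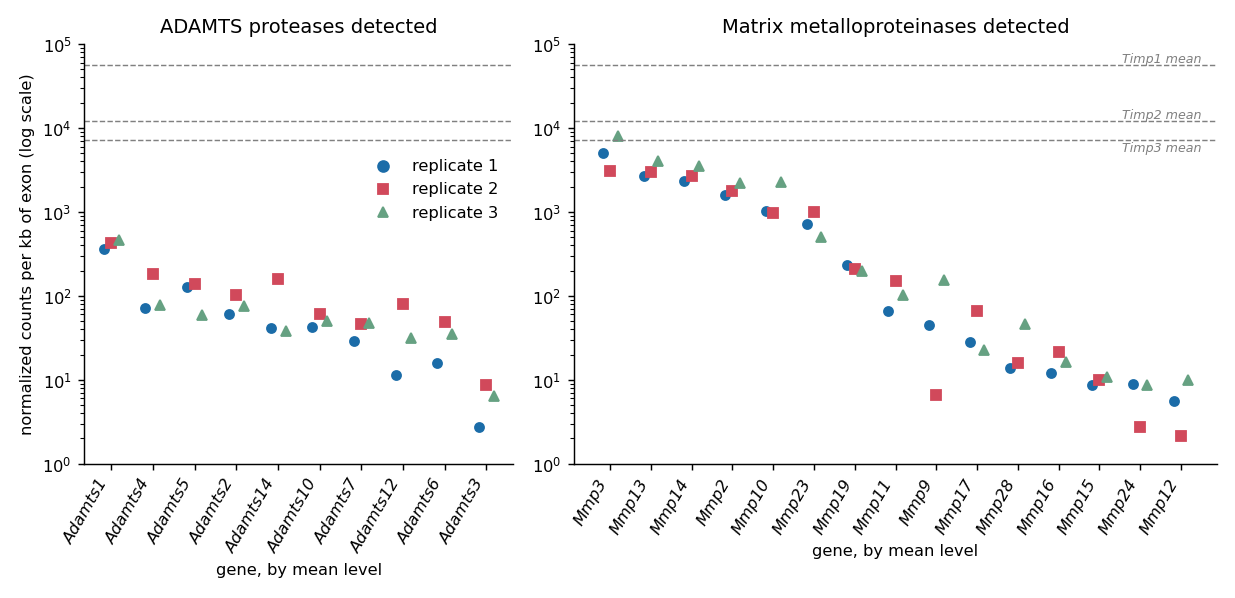
Normalized counts per kb of exon (log axis) for the 10 detected ADAMTS genes (left) and the 15 detected MMP genes (right), ordered by mean, with 1 point per replicate and dashed lines at the means of Timp1, Timp2 and Timp3. Adamts1 is the highest ADAMTS gene. The highest MMP genes, Mmp3, Mmp13, Mmp14 and Mmp2, lie between it and the TIMP lines by mean, as do Mmp10 and Mmp23.

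Targets and partners of the members were described in the same way. For the counts below, a more than 2-fold range was found in 21.6% of all detected genes, and no list was tested against this share. Of the 23 MMP genes 15 were detected, and 9 of these had a more than 2-fold range, widest for Mmp9, Mmp12 and Mmp28. The highest per kb were Mmp3, Mmp13, Mmp14 and Mmp2. Mmp14, the membrane protease that works with Timp2, had 13724, 15866 and 20812 normalized counts, and its substrate Mmp2 had 5406, 6024 and 7452, so both genes were highest in replicate 3, as Timp2 was. This was not particular to these partners, since Mmp3, Mmp13, Col1a1 and Fn1 were also highest there, while Mmp19 and Mmp23 were not. All 8 ADAM genes were detected, led per kb by Adam9, Adam15, Adam19 and Adam10, and 4 had a more than 2-fold range, with Adam33, Adam8 and Adam12 the widest. Adam17, the sheddase that Timp3 blocks, had 860, 1121 and 954 normalized counts, a 1.30-fold range. Of 6 other inhibitor genes 5 were detected, and 3 (Tfpi2, Serpine2 and Cst3) had a more than 2-fold range.

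The substrates of the aggrecanases differed widely in level. Versican (Vcan) had 5457, 8588 and 6306 normalized counts, highest in replicate 2 with a 1.57-fold range, while aggrecan (Acan) had 4.34, 0 and 36.7 and was not detected. Of the 9 genes of aggregating proteoglycans and partners, 6 were detected, the highest per kb being Cd44, Fbln2, Vcan and Fbln1. Of these 6, 3 (Bcan, Hapln1 and Fbln1) had a more than 2-fold range, against 21.6% of all detected genes. Among 11 genes of fibrillar procollagens and their processing 10 were detected, led per kb by Col1a1, Col5a2, Col1a2 and Col5a1, and 4 had a more than 2-fold range, widest for Col2a1, Pcolce2 and Tll1. All 11 genes for activation, clearance and receptors were detected, with Fn1, Itgb1, Sdc4 and Cd63 the highest per kb. In 3 of the 11 (27.3%), which were Comp, Sdc4 and Sdc1, the range was more than 2-fold, near the share of all detected genes. Of the same 11 genes, Lrp1, the receptor that clears Timp3 and aggrecanases from the medium, had 17409, 21453 and 28209 normalized counts, a 1.62-fold range.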

How the data were processed

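RNA was sequenced by the authors as stranded mRNA libraries on 50 bp single-end reads. Per the labels and methods, reads were aligned to mm10 with TopHat2 2.0.13 and counted per gene with HTSeq 0.5.3p3, and DESeq was used. The signal deposited per gene is a normalized count, that is, the authors' read count divided by 1 size factor per library. Of its columns, 3 could not be assigned to a sample and were not used. Every value (100%, tolerance 0.01 reads) was a whole multiple of 1 read, and totals were 22540518, 27037783 and 17244505 reads. Each pair of libraries differed far beyond sampling noise (dispersion index 56.0 or more).

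Means, SDs, ranges and log2 values (pseudocount 1) were computed with Python 3.11.15, numpy 2.4.6, pandas 2.3.3 and scipy 1.17.1. TMM factors for an alternative came from edgeR 4.0.16. Only the steps for the SD, the range and a library standing apart were run on simulated data, which varied less between libraries than these. The other steps were not tested in this way. Positions and lengths came from GENCODE M21 (GRCm38), and promoters from RefSeq (GRCm38.p6). The annotation behind the counting is not given in the sources used here. Members, lists and tests were chosen with earlier results of these data known. Named genes were the members, the up to 4 highest per kb and up to 3 widest in range of each list, and the 2 genes nearest in pattern to each member with a more than 2-fold range. Mmp2, Mmp14, Adam17, Lrp1, Vcan, Acan and Comp were given values because of their link to a member, and genes overlapping members were named after their values were seen. Some genes under this rule are not reported here. Alternatives were other pseudocounts, minimums, fold limits, scalings and lengths, and each replicate left out.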

Additional observations from a re-analysis of the deposited data

How the results depend on the processing

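No paired analysis was possible because there was no other group to pair with. With a limit of 1.5-fold in place of 2-fold, 7 members had a range past it, as had 48.5% of all detected genes. With each replicate left out, the number of members with a more than 2-fold range was 2 to 5, lowest without replicate 2, and the median SD of the members was 0.24 to 0.80, again lowest without replicate 2. Without a length correction 4 of 10 members kept their rank, since Timp3 then stood above Timp1 and Timp2, and Adamts5 and Adamts2 moved above Adamts4. Without replicate 2 or without replicate 3, Adamts5 and Adamts4 exchanged ranks. With a pseudocount of 10, the number of members with replicate 2 apart was 3 in place of 4, without Adamts9, and with no filter on low values it was 5, with Timp4. TMM scaling and scaling to equal total reads left the numbers of members with replicate 2 apart or with a range past 2-fold, and the order per kb, as they were. Neither scaling moved the mean of any of the 10 members by more than 1 SD, but this was no check of the means. Both scalings kept the mean level of the deposited values, and the SD between replicates is a wide limit. Depth limited Timp4 and Adamts9, whose lowest libraries held 0 and 9 reads.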
